A study of Rattus norvegicus with 20 samples.

Results

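Fatty acid oxidation was followed here through 9 genes in paired tissues of 10 rats, the gastrocnemius (a calf muscle of mixed fibre types) and abdominal white fat. The genes were taken by Ensembl identifier from a table of 32883 genes. They encode the carnitine palmitoyltransferases Cpt1a, Cpt1b and Cpt2, the acyl-CoA dehydrogenases Acadvl, Acadl and Acadm, the trifunctional protein subunits Hadha and Hadhb, and the pyruvate dehydrogenase kinase Pdk4. All 9 passed the filter on low counts and were among the 13806 genes tested. The muscle group and the adipose group each held 10 libraries, 1 from each tissue of 10 rats of the Fischer 344 x Brown Norway cross, obtained at an age of 8 months and kept on a reversed light cycle. The sample labels call every rat male, while the design text counts 5 males and 5 females, so no comparison by sex was made. The sources used here give neither feeding state nor clock time at dissection.

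Long-chain fatty acids enter the mitochondrial matrix as carnitine esters. The outer-membrane enzyme carnitine palmitoyltransferase I makes the ester and is inhibited by malonyl-CoA, the first committed intermediate of fatty acid synthesis. It exists as a liver-type isoform, Cpt1a, and a muscle-type isoform, Cpt1b, which is the more sensitive to malonyl-CoA. In the matrix the acyl chain is shortened in repeated rounds of dehydrogenation, hydration, a second dehydrogenation and thiolysis. Pdk4 phosphorylates and inactivates the pyruvate dehydrogenase complex, which limits the entry of glucose carbon into the citric acid cycle when fatty acids are the fuel. It is known as a gene induced by fasting.

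Muscle libraries held 8446753 to 20141854 counts and adipose libraries 11067755 to 25904309. The lowest count of any of the 9 genes in a library was 32.5 reads, for Cpt1a in muscle library 7. Muscle library 2 correlated least with the other muscle libraries (mean r across genes 0.925, against 0.957 to 0.967 for the other 9), and adipose library 4 least with the other adipose libraries (0.890, against 0.909 to 0.956). In adipose libraries 3, 1 and 5, a set of 170 muscle-restricted genes, taken from these libraries (muscle median no lower than 20 CPM and no less than 100 times that of adipose libraries) and holding none of the 9, stood at 1.57%, 1.41% and 0.445% of its muscle level by library totals, against 0.0296% to 0.151% in the other 7. A set of 153 adipose-restricted genes, chosen the same way, stood at 0.203% to 0.528% of its adipose level in muscle, highest in library 2. The choice of these genes keeps their level in the other tissue low, so the values compare libraries and do not measure how much RNA of the other tissue is present. Named markers of muscle fibres, adipocytes and other cells were not examined, because the identifiers of other genes are not paired with names here. In bulk tissue, fewer cells of a type and less RNA per cell cannot be told apart.

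Of the 9 genes, 8 were higher in muscle and 1, Cpt1a, was higher in adipose tissue (edgeR, adjusted p below 0.05 over all genes). Of all genes tested, 79.8% were called in either direction, 37.6% with muscle higher and 42.2% with adipose tissue higher. The muscle and adipose libraries did not overlap for 7 genes higher in muscle and for Cpt1a in the other direction. Only Hadha overlapped at this scaling. Over all genes tested, 45.5% showed no overlap, 21% with muscle higher and 24.5% with adipose tissue higher. The median log2 fold change, muscle over adipose, was 2.15 over the 9 genes and -0.09 over all genes tested. Levels are given as CPM, counts scaled to a common library size. They use trimmed-mean (TMM) factors, which assume that most genes do not differ. When libraries were scaled by their totals alone, the median of all genes moved by -1.31 on the log2 scale. Then 6 of the 9 genes were called higher in muscle, where 12.3% of all genes were, and 2, Cpt1a and Hadha, higher in adipose tissue, where 74.2% were. The libraries then did not overlap for 2 genes higher in muscle, Cpt1b and Acadm, where 6.01% of all genes did so, and for Cpt1a in the other direction, where 50.3% did. Cpt2, Acadvl, Acadl, Hadha, Hadhb and Pdk4 overlapped. Each gene's rank among all fold changes is free of such a common shift and is given below as a percentile, counted from the gene most adipose-biased.

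**Figure D1:**
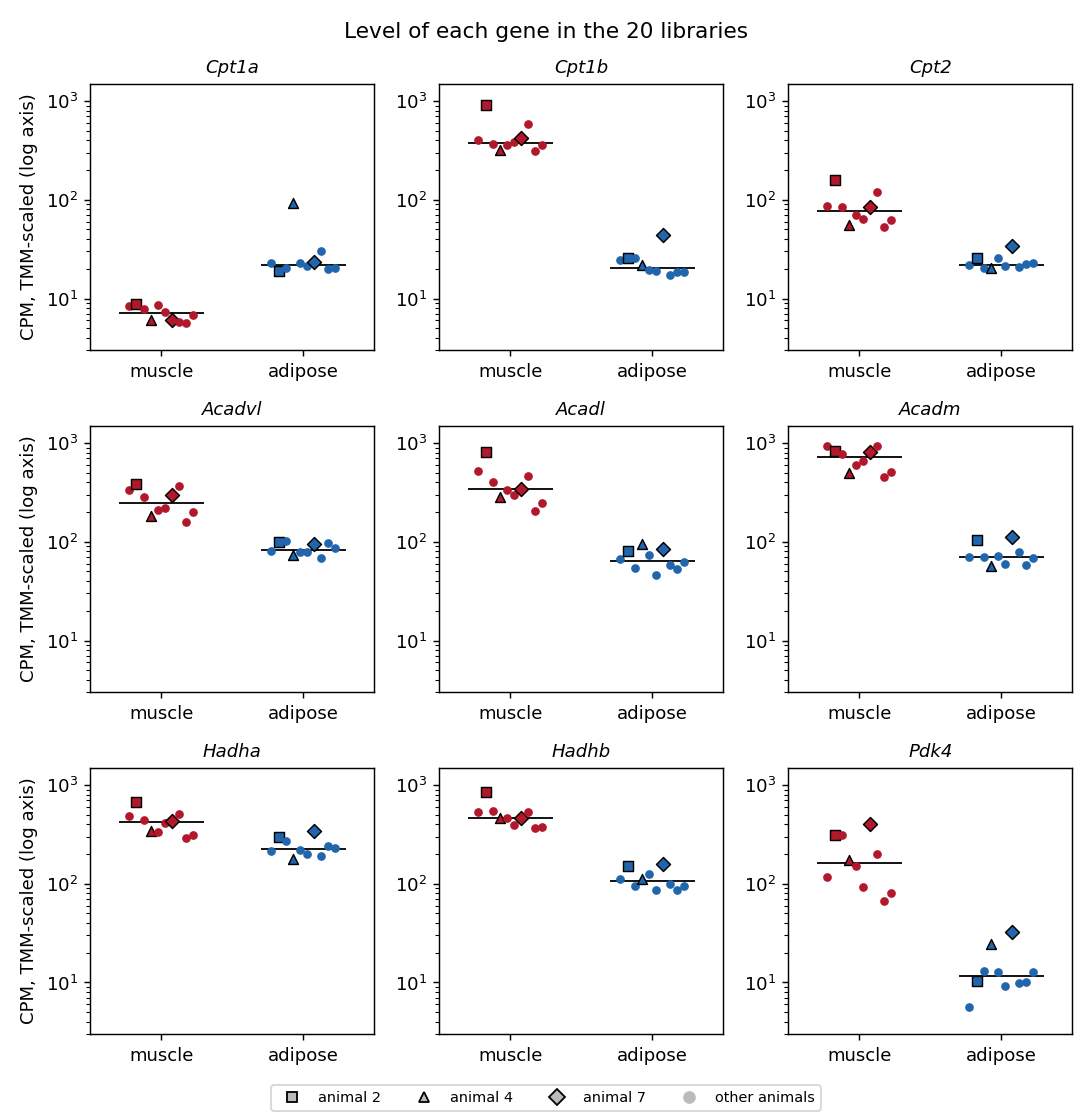
Level of each of the 9 genes in CPM (TMM-scaled, log axis) in the 10 muscle and 10 adipose libraries. Points are libraries, lines are medians, and squares, triangles and diamonds mark animals 2, 4 and 7. Cpt1a is the only panel with the muscle points below the adipose points, and only the Hadha panel has libraries of the tissues at the same height.

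The isoforms of carnitine palmitoyltransferase I lay at opposite ends. Cpt1b (ENSRNOG00000010438) had a median of 379 CPM in muscle (lowest 312, highest 919) and of 20.5 CPM in adipose tissue (lowest 17.2, highest 44.4). Muscle library 2 was the highest in its tissue and adipose library 7 in the other. The means were 443 ± 184 CPM in muscle and 23.5 ± 8.01 CPM in adipose libraries (SD, n = 10 each), a log2 fold change of 4.24 (edgeR, SE 0.23, adjusted p = 1.61e-13), or 18.9-fold. It stood at percentile 96.4 of all fold changes.

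Cpt1a (ENSRNOG00000014254), the isoform of liver and many other tissues, had a median of 7.08 CPM in muscle (lowest 5.69, highest 8.79) and of 22.0 CPM in adipose tissue (lowest 19.1, highest 93.1). Adipose library 4 held the 93.1 CPM, and the other 9 adipose libraries lay between 19.1 and 30.1 CPM. The means were 7.15 ± 1.21 CPM in muscle and 29.3 ± 22.6 CPM in adipose libraries (SD, n = 10 each). Without library 4 the adipose mean was 22.3 ± 3.26 CPM (SD, n = 9). The log2 fold change was -2.03 (edgeR, SE 0.26, adjusted p = 3.41e-07), 4.10-fold in favour of adipose tissue and at percentile 18.0. It was -1.61 without animal 4 and -3.43 with library totals.

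The balance of these isoforms was measured within each library as Cpt1b reads per Cpt1a read, which needs no scaling between libraries. Transcript lengths were not available, so a ratio of 1 does not mean equal numbers of transcripts, and the difference between tissues is free of length only where each gene uses the same transcripts in both, which was not tested. Muscle libraries held 40.9 to 104 Cpt1b reads per Cpt1a read, with a median of 52.2. Adipose libraries held 0.234 to 1.90, with a median of 0.918. The highest muscle ratios were in libraries 2 and 8, at 104 and 98.5, and the lowest adipose ratio was in library 4, where Cpt1a was highest. The next adipose ratio was 0.571. The log2 ratio was 5.88 ± 0.45 in muscle and -0.18 ± 0.82 in adipose libraries (SD, n = 10 each). The mean difference was 6.06 (SE 0.28 over 10 animals), a 66.5-fold shift towards Cpt1b, with muscle above adipose tissue in each of 10 animals (two-sided exact sign-flip permutation over animals, p = 0.00195, the smallest possible here). By animal the shift ran from 36.1-fold in animal 7 to 221-fold in animal 4.

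Without animals 1, 3 and 5, whose adipose libraries held the highest levels of muscle-restricted genes, the mean log2 shift of the ratio was 6.32. RefSeq also places a lncRNA gene over each of Cpt1a, Cpt2 and Acadl. An snRNA gene lies over Acadl, a snoRNA gene over Acadm and a miRNA gene over Acadvl. Whether counting used strand is not given in the sources used here.

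**Figure D2:**
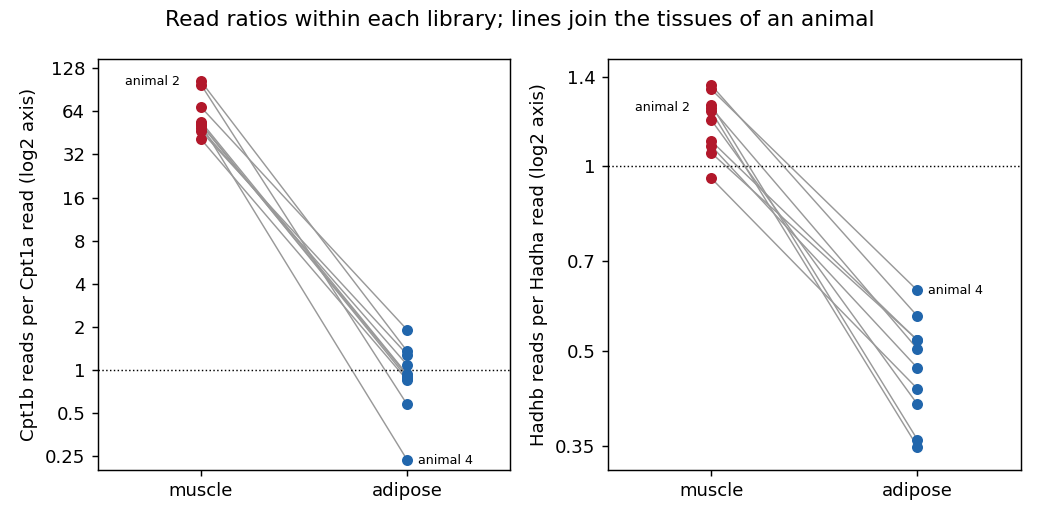
Cpt1b reads per Cpt1a read (left) and Hadhb reads per Hadha read (right) within each library, on log2 axes, for muscle and adipose tissue. Grey lines join the tissues of an animal, and every line falls towards adipose tissue, with the Cpt1 ratios at 40.9 to 104 in muscle and 0.234 to 1.90 in adipose tissue.

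Cpt2 (ENSRNOG00000012443), the inner-membrane enzyme that reforms acyl-CoA in the matrix, differed less than Cpt1b. It had a median of 77.1 CPM in muscle (lowest 53.6, highest 158) and of 22.1 CPM in adipose tissue (lowest 20.2, highest 33.9). Muscle libraries 2 and 8 were highest, at 158 and 119 CPM, and no adipose library reached the lowest muscle library. The log2 fold change was 1.83 (edgeR, SE 0.18, adjusted p = 2.72e-09), at percentile 88.4. With library totals the tissues overlapped and the value was 0.56 (edgeR adjusted p = 0.0124).

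The acyl-CoA dehydrogenases carry out the first step of each round and differ in the chain length they take. Acadm (ENSRNOG00000009845), for medium chains, had the largest difference of the 3. It had a median of 714 CPM in muscle (lowest 449, highest 937) and of 70.1 CPM in adipose tissue (lowest 57.1, highest 111). The log2 fold change was 3.22 (edgeR, SE 0.17, adjusted p = 1.66e-13), or 9.33-fold, at percentile 94.8. Its libraries did not overlap under either scaling.

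Acadl (ENSRNOG00000012966), for long chains, had a median of 339 CPM in muscle (lowest 205, highest 815) and of 64.5 CPM in adipose tissue (lowest 45.6, highest 94.1). Muscle library 2 was the highest, and adipose library 4 was the highest of its tissue. The log2 fold change was 2.54 (edgeR, SE 0.22, adjusted p = 3.66e-10), or 5.83-fold, at percentile 92.8. Acadvl (ENSRNOG00000018114), the membrane-bound enzyme for the longest chains, had a median of 250 CPM in muscle (lowest 158, highest 387) and of 83.0 CPM in adipose tissue (lowest 68.1, highest 102). It was higher in muscle with TMM factors (log2 fold change 1.61, SE 0.16, edgeR adjusted p = 2.71e-09, percentile 86.3). With library totals its log2 fold change was 0.34 and no longer past the threshold (edgeR adjusted p = 0.0504), and muscle was the higher tissue in 6 of 10 animals.

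The trifunctional protein, bound to the inner membrane, carries out the remaining steps on long chains: its alpha subunit Hadha is hydratase and dehydrogenase, and its beta subunit Hadhb is the thiolase. The genes lie head to head. RefSeq places their start sites 301 bases apart on opposite strands, so that windows from 250 bases before to 50 bases after each start share 200 bases. Both windows are shown 5′ to 3′ on the strand of their gene. They were chosen because reads of these genes, whose subunits work as 1 complex, were not in the same ratio in the 2 tissues. Capitals mark the bases common to the windows (GRCr8, Hadha at chr6:31907551-31907850, plus strand; Hadhb at chr6:31907451-31907750, minus strand).
Hadha: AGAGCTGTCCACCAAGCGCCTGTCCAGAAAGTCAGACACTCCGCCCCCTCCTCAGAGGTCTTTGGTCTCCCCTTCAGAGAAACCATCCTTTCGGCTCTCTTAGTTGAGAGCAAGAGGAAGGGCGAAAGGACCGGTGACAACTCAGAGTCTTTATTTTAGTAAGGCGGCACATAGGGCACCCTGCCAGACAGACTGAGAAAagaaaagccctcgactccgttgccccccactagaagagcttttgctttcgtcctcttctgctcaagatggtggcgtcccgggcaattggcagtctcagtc
Hadhb: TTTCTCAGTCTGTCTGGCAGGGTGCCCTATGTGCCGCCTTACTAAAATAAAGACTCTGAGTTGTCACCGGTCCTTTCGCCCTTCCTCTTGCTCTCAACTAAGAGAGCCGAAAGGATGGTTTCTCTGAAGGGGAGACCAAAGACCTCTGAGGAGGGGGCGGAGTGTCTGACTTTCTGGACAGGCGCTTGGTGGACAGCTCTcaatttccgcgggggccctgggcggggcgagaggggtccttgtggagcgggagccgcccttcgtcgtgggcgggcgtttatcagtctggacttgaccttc

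Hadhb (ENSRNOG00000010800) had a median of 461 CPM in muscle (lowest 367, highest 840) and of 106 CPM in adipose tissue (lowest 85.8, highest 159). Its log2 fold change was 2.15 (edgeR, SE 0.16, adjusted p = 3.15e-11), at percentile 90.9. Hadha (ENSRNOG00000024629) had a median of 418 CPM in muscle (lowest 291, highest 673) and of 225 CPM in adipose tissue (lowest 177, highest 339). The adipose libraries 7 and 2 reached into the muscle range. The log2 fold change of Hadha was 0.83 with TMM factors (SE 0.15, edgeR adjusted p = 3.39e-05), at percentile 73.2, and -0.44 with library totals (SE 0.16, edgeR adjusted p = 0.0123). Which tissue held more Hadha per library therefore depended on the scaling, while its ratio to Hadhb did not need one.

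Within libraries, 0.957 to 1.36 Hadhb reads were found per Hadha read in muscle, with a median of 1.21, and 0.349 to 0.628 in adipose tissue, with a median of 0.486. The tissues did not overlap. The log2 ratio was 0.23 ± 0.16 in muscle and -1.09 ± 0.28 in adipose libraries (SD, n = 10 each), a mean difference of 1.33 (SE 0.094), or 2.51-fold, in the same direction in each of 10 animals (two-sided exact sign-flip permutation over animals, p = 0.00195). How reads that map to several places were counted is not given, so reads shared with near-identical copies of either gene may bear on the ratio, which was not tested.

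Pdk4 (ENSRNOG00000009565) had the largest SD of log2 CPM of the 9 genes in each tissue. It had a median of 162 CPM in muscle (lowest 66.3, highest 405) and of 11.6 CPM in adipose tissue (lowest 5.71, highest 32.2). In muscle, library 7 was highest, followed by libraries 2 and 3 at 315 and 310 CPM, and libraries 9 and 10 were lowest. In adipose tissue, libraries 7 and 4 were highest, at 32.2 and 24.5 CPM, and library 1 was lowest. The means were 191 ± 116 CPM in muscle and 14.1 ± 8.03 CPM in adipose libraries (SD, n = 10 each), a log2 fold change of 3.76 (edgeR, SE 0.38, adjusted p = 6.00e-09), or 13.6-fold, at percentile 95.8. The log2 fold change was 3.67 without adipose libraries 1, 3 and 5.

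The promoter window of Pdk4 is shown because its level varied most between animals on the log2 scale (RefSeq, GRCr8, chr4:34568280-34568579, minus strand, 250 bases before to 50 after the start). Capitals mark the GC boxes, GGGCGG read on either strand.
Pdk4: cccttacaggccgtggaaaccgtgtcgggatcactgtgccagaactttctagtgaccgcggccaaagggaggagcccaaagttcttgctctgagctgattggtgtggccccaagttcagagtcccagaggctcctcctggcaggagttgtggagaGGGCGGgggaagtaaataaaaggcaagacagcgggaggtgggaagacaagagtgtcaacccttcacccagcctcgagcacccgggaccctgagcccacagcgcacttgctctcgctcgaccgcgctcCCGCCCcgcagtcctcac
Windows were found for 7 of the 9 genes. A GC box was present in 5 of these 7 and in 33.1% of all 33469 promoter windows. The only box of Hadha lies in the bases shared with Hadhb and is counted for both, so the 5 windows are not independent. The nuclear receptor hexamer AGGTCA, on either strand, was present in Acadvl and Hadhb and in 16.2% of all windows. The cAMP response element TGACGTCA was present in Acadm and in 1.83% of all windows. The DR1 element of PPAR (the hexamer repeated with 1 base between), TCAAGGTCA (an ERR element that contains the hexamer), GTAAACA (FOXO), CACGTG (E-box) and TATAAA were in 0 of the 7 windows, and in 0.0538%, 0.433%, 3.78%, 6.42% and 14.2% of all windows. A match or its absence describes only these letters in this window.

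**Figure D3:**
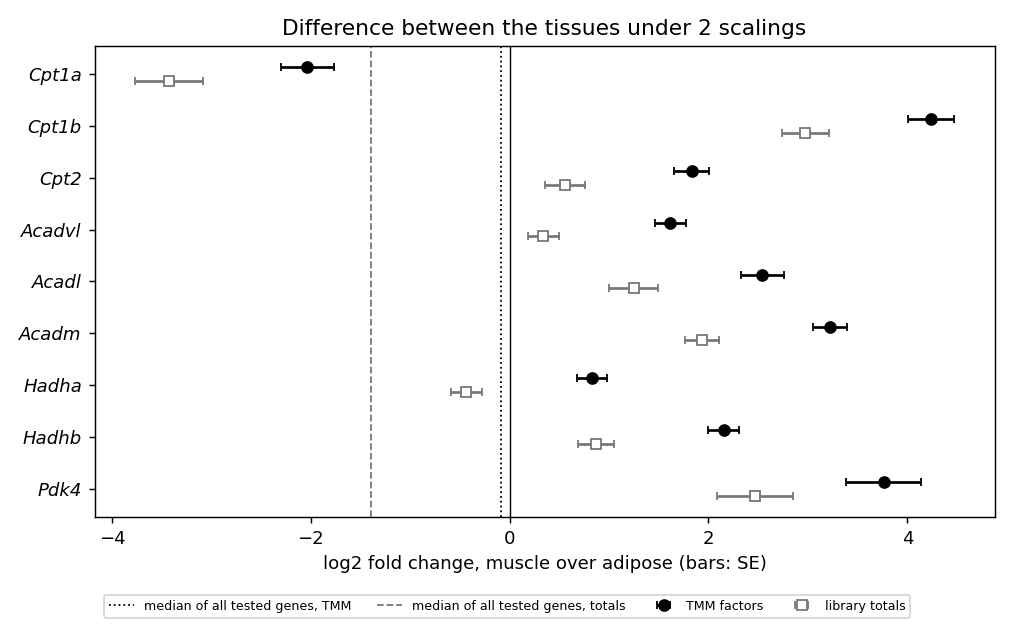
Log2 fold change, muscle over adipose, of each gene with TMM factors (filled circles) and with library totals (open squares); bars are standard errors, and the dotted and dashed lines are the medians of all tested genes under each scaling (-0.09 and -1.39). Every gene lies lower with library totals, which takes Hadha from 0.83 with TMM factors to -0.44.

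The 9 genes together took 0.194% ± 0.0728 of the counts in muscle and 0.105% ± 0.0191 in adipose libraries (SD, n = 10 each). The range was 0.118% to 0.369% in muscle and 0.0809% to 0.138% in adipose tissue, so the tissues overlapped. Single genes took different parts of these reads in the tissues. Acadm took the largest part in muscle, 23.6% ± 2.84, against 11.2% ± 1.47 in adipose tissue. Hadha took the largest part in adipose tissue, with 14.3% ± 0.943 in muscle and 35.6% ± 3.97 in adipose tissue. Cpt1b took 14.7% ± 2.23 in muscle and 3.46% ± 0.591 in adipose tissue, and Cpt1a 0.252% ± 0.0624 in muscle and 4.48% ± 3.39 in adipose tissue. The adipose part of Cpt1a had a median of 3.43% and was highest in library 4, at 13.9%. Hadhb took nearly equal parts, 16.8% ± 1.93 in muscle and 16.7% ± 1.75 in adipose libraries (SD, n = 10 throughout). Reads were not corrected for length, so these parts compare tissues and not genes.

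On the log2 scale animals differed most in Pdk4. The SD of its log2 CPM over 10 animals was 0.90 in muscle and 0.71 in adipose tissue, against medians of 0.23 and 0.34 for 500 genes of similar level in each tissue. In muscle, 97.2% of those 500 genes had a lower SD, and in adipose tissue 91.4%. On the linear scale the coefficient of variation in adipose tissue was 57.2% for Pdk4 and 77.1% for Cpt1a. Cpt1a had an SD of 0.24 in muscle, above that of 12.2% of genes of similar level, and of 0.68 in adipose tissue, above 94.0%. The adipose value rests on library 4: without it the SD was 0.19, above that of 22.4% of such genes. Without library 7 the SD of Pdk4 was 0.81 in muscle, above 95.4% of such genes, and 0.55 in adipose tissue, above 79.8%. In muscle, 8 of the 9 genes lay above the median SD of genes of similar level, with 70.4% to 97.2% of such genes below them. In adipose tissue 5 of 9 did, and Acadvl (SD 0.20) and Cpt2 (SD 0.23) had the lowest SDs. Cpt1b, among those 5, lay above 69.0% of such genes there, and above 26.6% without library 7 (SD 0.23). Without library 7 the adipose SD of Cpt2 was 0.13, above that of 5.0% of such genes.

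**Figure D4:**
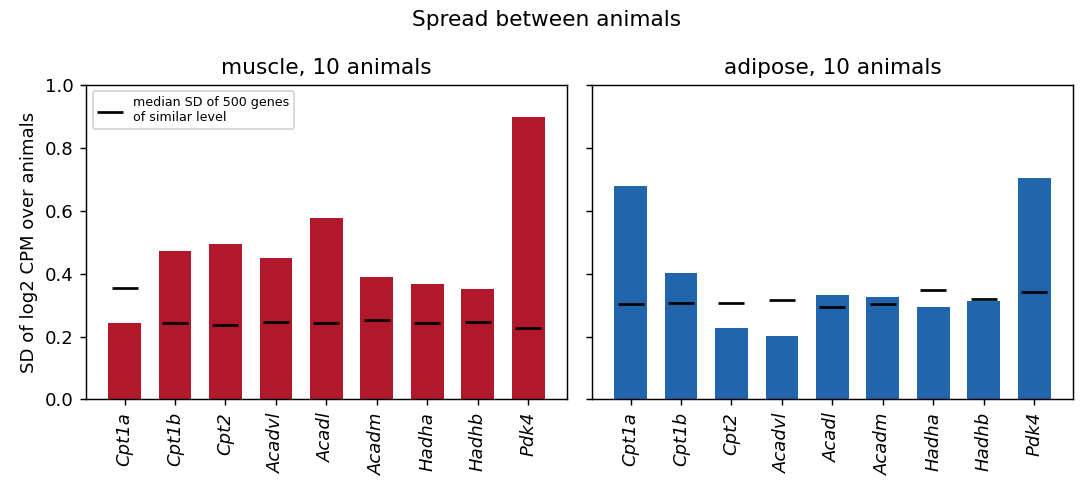
Standard deviation of log2 CPM over 10 animals for each gene (bars) in muscle and adipose tissue, with the median SD of 500 genes of similar level (black dashes). Pdk4 reaches 0.90 in muscle and 0.71 in adipose tissue, and Cpt1a 0.24 in muscle and 0.68 in adipose tissue, where library 4 sets the value.

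Levels were also compared between genes across animals. Of 36 pairs among the 9 genes, 20 had a positive Pearson correlation with an adjusted p below 0.05 in muscle and 9 in adipose tissue (permutation test, adjusted over 72 relations). Spearman's rho called 21 positive pairs in muscle, and 2 positive pairs and 1 negative pair in adipose tissue. Without animal 2, Pearson's r called 18 in muscle and 2 in adipose tissue. The 9 adipose pairs called over all animals had r of 0.73 to 0.86, and of 0.71 to 0.83 without animal 2. Their r ran from 0.12 to 0.97 without the 2 animals farthest from the median of 1 gene of the pair. Adipose library 7 was highest for Cpt1b, Cpt2, Acadm, Hadha and Hadhb, and pairs were not computed without animal 7. In muscle r was above 0 in 36 of 36 pairs, with a median of 0.81, and in 34 of 36 without animal 2. In adipose tissue r was above 0 in 30 of 36 pairs, with a median of 0.50. Over all 34465753 pairs of 8303 genes the median r was 0.03 in muscle and 0.00 in adipose tissue, as a description with no test. An r of at least 0.69, the lowest called in muscle, was found in 20 of the 36 pairs and in 6.57% of all gene pairs there. An r of at least 0.73, the lowest called in adipose tissue, was found in 10 of the 36 pairs and in 7.56% of all gene pairs there. Without animal 2, whose muscle library stood apart, 21 of the 36 muscle pairs and 5.86% of all gene pairs reached 0.69. All pairs within a tissue share the same libraries and scaling factors, so they are not independent. With library totals the counts were 27 in muscle and 11 in adipose tissue.

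The highest value in muscle was between Acadl and Hadha (r = 0.96, rho = 0.95, permutation adjusted p = 0.00072 for r and 0.00144 for rho). Without the 2 animals farthest from the median of Acadl, r was 0.89. The highest in adipose tissue was between Acadvl and Hadha (r = 0.86, rho = 0.87, permutation adjusted p = 0.00657 for r and 0.00856 for rho), with r = 0.87 without the 2 animals farthest from the median of Acadvl. Hadha and Hadhb had r = 0.90 in muscle (rho = 0.90, permutation adjusted p = 0.00338 for r and 0.00418 for rho) and r = 0.73 without the 2 animals farthest from the median of Hadha. In adipose tissue they had r = 0.58 (rho = 0.28, permutation adjusted p = 0.134 for r and 0.552 for rho), and r was -0.30 without the 2 farthest animals. Whether the pair's correlation differs between tissues was not tested.

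Pairs with Cpt1a were lower. With r, 0 of its 8 pairs passed in each tissue. In muscle its r lay between 0.15 and 0.58, between 0.35 and 0.72 with library totals, and between -0.13 and 0.41 without animal 2. Its muscle counts were 32.5 to 108 reads per library. Counting error is part of the spread at such counts and can lower r, which was not tested. In adipose tissue its r lay between -0.57 and 0.53, and 3 of 8 values were above 0. The lowest value was with Acadvl in adipose tissue (r = -0.57, rho = -0.82, permutation adjusted p = 0.0864 for r and 0.0192 for rho). Over all 10 animals this pair passed with rho and not with r. Without animal 4, whose Cpt1a level was the highest, its r was -0.79 and passed as the 1 negative pair among 10 called. With library totals its r was 0.16. The highest adipose value, 0.53 with Acadl, was -0.00417 without animal 4, and that with Pdk4 was 0.47 with all animals and 0.02 without animal 4.

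**Figure D5:**
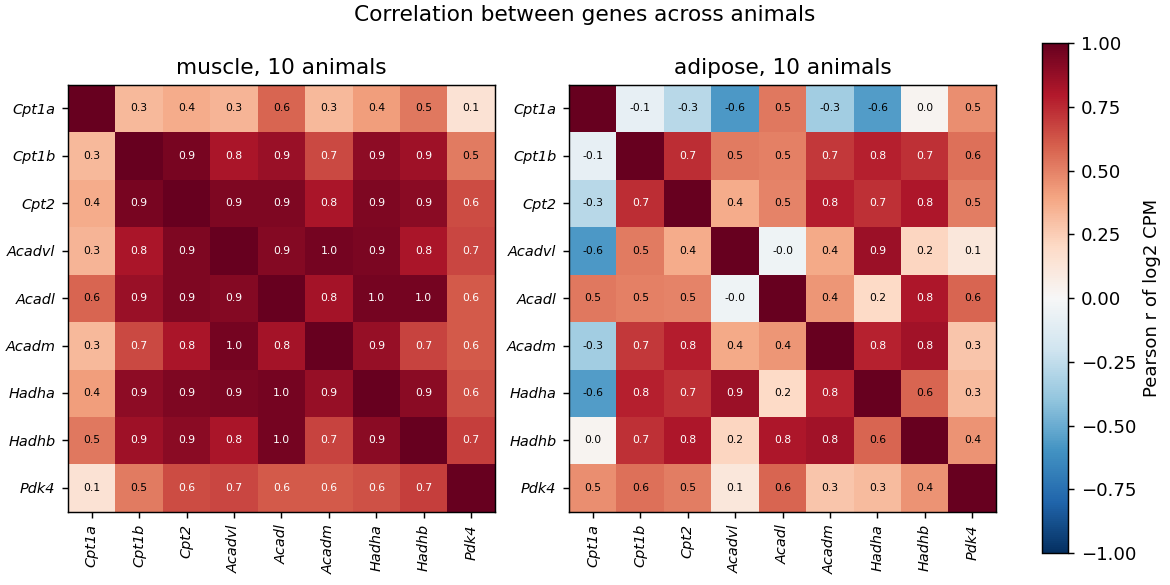
Pearson r of log2 CPM between each pair of the 9 genes over 10 animals, in muscle (left) and adipose tissue (right), on a colour scale from -1 to 1 with r printed to 1 decimal in the cells off the diagonal. In muscle the 21 pairs of the 7 enzymes other than Cpt1a lie between 0.66 and 0.96, and in adipose tissue the Cpt1a row holds values from -0.57 to 0.53.

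Pdk4 was set against each enzyme as a family of 16 relations. In muscle r was 0.15 with Cpt1a and 0.52 to 0.69 with the other 7, and in adipose tissue it was 0.11 to 0.59. With adjustment over the 16, 0 relations passed for r and 0 for rho, with 4 and 5 in muscle and 0 and 0 in adipose tissue at an unadjusted permutation p below 0.05. The highest was with Hadhb in muscle (r = 0.69, rho = 0.77, permutation adjusted p = 0.170 for r and 0.140 for rho over 16 relations, and 0.0483 for r over the 72 above). Without the 2 animals farthest from the median of Hadhb it was 0.59. As a description over 20 libraries, deviations from the tissue mean of Pdk4 had r = 0.60 with Acadl, 0.60 with Cpt2 and 0.59 with Hadhb, which ranked 88, 93 and 101 among 8302 genes. Cpt1b, Hadha, Acadvl and Acadm ranked 255 to 488, and Cpt1a ranked 1701. The most alike genes were ENSRNOG00000003398 (r = 0.78, with 0.74 in muscle and 0.85 in adipose tissue) and ENSRNOG00000062247 (r = 0.75, with 0.75 in muscle and 0.78 in adipose tissue). For Cpt1a they were ENSRNOG00000002215 (r = 0.92, with 0.45 in muscle and 0.96 in adipose tissue) and ENSRNOG00000057880 (r = 0.90, with 0.42 in muscle and 0.96 in adipose tissue). Without animal 4 their adipose r with Cpt1a was 0.32 and 0.22, so this likeness rests on adipose library 4. Without animal 7 the r of Pdk4 with ENSRNOG00000003398 was 0.64 in muscle and 0.70 in adipose tissue. With ENSRNOG00000062247 it was then 0.64 and 0.69.

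An animal's level in muscle was also compared with its level in adipose tissue for each gene. Of 9 relations, 0 passed the adjustment for r or rho, and 0 and 1 had an unadjusted permutation p below 0.05. The highest was Acadm (r = 0.63, rho = 0.76, permutation adjusted p = 0.316 for r and 0.133 for rho), with r = 0.42 without the 2 animals farthest from the median in muscle. Pdk4 had r = 0.49 and rho = 0.48 (permutation adjusted p = 0.443 and 0.496), and r = 0.20 without the 2 farthest animals. Animal 7 had the highest Pdk4 level in muscle and, with TMM factors, in adipose tissue. With library totals adipose library 4 was highest, at 48.4 CPM, with library 7 at 48.2 CPM.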

How the data were processed

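Estimated counts per gene, which need not be whole, were deposited by the authors in 1 table. STAR, featureCounts, bcl2fastq and the build rn6 were used, per the submitters' processing notes. Not given in the sources used here are their versions and roles, the annotation release, strand and the treatment of multi-mapping reads. Counts were rounded and tested with edgeR 4.0.16 (quasi-likelihood, TMM factors, Benjamini-Hochberg adjustment over 13806 genes, threshold 0.05) in R 4.3.3. The model was also run on simulated counts drawn from adipose levels, with few genes changed. Most genes tested were called between these tissues, so that run does not test the assumption behind TMM factors here. Levels are CPM, counts scaled to a common library size. The edgeR p-values weigh a difference against the spread between libraries, and the sign-flip p-values use the differences within animals. Those of correlations come from reshuffling animals. Depth limits precision through counting error, which is largest for Cpt1a in muscle.

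All 9 genes are described, with the 2 genes most alike for Pdk4 and Cpt1a. Gene names came with the gene list. The members and lists were chosen with earlier results of these data known. The wider pathway list and the cell type markers were not run, because 0 of their symbols could be matched to identifiers. Muscle and adipose libraries were paired by animal, per the labels. Deviations of same-animal libraries correlated with a median r of 0.116 (range -0.223 to 0.424), against a median of -0.0261 between animals (range -0.608 to 0.426). The range between animals covers that of same-animal libraries, so these values do not test the pairing. The main edgeR test did not use the pairing. The ratios within libraries did. Alternatives were other scalings, no filter, DESeq2 1.42.0, limma 3.58.1, the replicate block and leaving out libraries. The family of 72 correlations, its values without animal 4, the correlations of all gene pairs, the spread and likeness without single libraries and DESeq2 without replacement of outlying counts were added after the data were seen. Promoter windows came from RefSeq (GRCr8) and were matched by symbol for 7 genes.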

Additional observations from a re-analysis of the deposited data

Results flagged for a closer look

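The log2 CPM of each gene in each tissue (18 groups of 10 libraries) and the log2 of both read ratios (4 groups) were examined for a single library standing apart (gap to the nearest library over the group's range above Dixon's 95% value), and 4 groups held one. Chance gives about 1 in 20 groups where groups are independent. These groups share libraries and genes, so the number found was not tested against chance. Cpt1a in adipose library 4 was at 6.54, with the next at 4.92 (gap over range 0.714). Cpt1b in adipose library 7 was at 5.48, with the next at 4.70 (0.569). Cpt2 in the same library was at 5.09, with the next at 4.70 (0.524). Hadhb in muscle library 2 was at 9.71, with the next at 9.10 (0.519).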

How the results depend on the processing

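In the tissue comparison only library totals changed a call. With them, 2 genes in place of 1 were higher in adipose tissue, Hadha reversed to a log2 fold change of -0.44 and Acadvl stood at 0.34, past no threshold. Under the other 21 alternatives every gene for which an adjusted p was given kept its direction and its call. The replicate block, which pairs libraries by animal, changed no call and gave -1.82 for Cpt1a and 4.21 for Cpt1b. Leaving out 1 animal at a time gave -2.12 to -1.61 for Cpt1a, 4.07 to 4.40 for Cpt1b and 3.62 to 3.90 for Pdk4, and mean log2 shifts of 5.86 to 6.15 for the Cpt1 ratio and 1.27 to 1.36 for the Hadhb to Hadha ratio. DESeq2 without replacement of outlying counts gave no adjusted p for Cpt1a (log2 fold change -1.99). The wider pathway list was not run. Depth limits Cpt1a in muscle most, where counts went down to 32.5 reads. Among the pairs of genes across animals, those called in adipose tissue numbered 9, against 2 without animal 2, 10 without animal 4, 11 with library totals and 3 with rho, and those in muscle 20, against 18, 19, 27 and 21.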
